A study of Macaca fascicularis with 23 samples.

Results

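Primed Cm (cynomolgus monkey, Macaca fascicularis) iPSC lines were compared with the cultured somatic cells that they had been made from. The members were chosen by their labels, as the primed libraries of the lines L3 and L6 (from liver) and S6 and S12 (from stomach), 4 in all, and the libraries labelled Liver and Stomach (2 libraries), which make 6 of the 23 libraries of the series. The somatic cells were taken from the liver and the stomach of 1 female Cm foetus in mid-gestation and grown in DMEM with 10% FBS, insulin, transferrin, selenium, hepatocyte growth factor (40 ng/ml) and epidermal growth factor (20 ng/ml). L3 and L6 came from the liver cells and S6 and S12 from the stomach cells, after electroporation of episomal plasmids that carried the human factors OCT3/4, SOX2 and KLF4, LIN28 with L-MYC, and a short hairpin RNA against p53. The primed lines were then kept on mouse embryonic fibroblast feeder cells in bFGF/KSR medium, with 4 ng/ml bFGF and 15% KSR. Before RNA was taken, they spent more than 2 passages without feeder cells on laminin-511. Each line grew from a colony picked by hand, each line and each somatic culture gave 1 library, and all 6 libraries share the same foetus, so that p-values measure the spread between clones and cultures of 1 animal. By the study's account, the vector with OCT3/4 and the p53 hairpin was detected in L3 and L6. It was also found in S6 by the main text, or in S12 by the supplement. Exogenous OCT3/4 was still expressed in L3 and S6. Whether such transcripts add reads to POU5F1 was not tested. The medium, the matrix and the cell type changed together, so a response to the culture and an effect of reprogramming cannot be told apart.

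Reprogramming replaces the expression programme of a differentiated cell with that of a pluripotent cell. OCT3/4 and SOX2 are the transcription factors at the core of that programme, and LIN28 proteins, which block maturation of let-7 microRNAs, work with TRIM71, itself a let-7 target. Primed PSCs depend on FGF and on Activin/Nodal signals and correspond to the post-implantation epiblast. Cells that grow out of dissociated organs are often rich in mesenchymal cells, which make collagens, the enzymes that modify them and contractile proteins, and which present antigen through the interferon-inducible immunoproteasome.

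Expression was measured by SC3-seq, a method that sequences the 3′ ends of cDNA amplified here from 1 ng of total RNA. The table gives RPM, in which each gene's reads are divided by those mapped in its library, and expression was taken as log2(RPM + 1), the scale of every level and difference given here unless RPM is named. The steps of the low values gave between 861000 reads (L6) and 3401000 reads (L3) per library, and the level of 3 reads was between 0.882 RPM (L3) and 3.49 RPM (L6). This level covers counting error only, and a value of 0 means that the gene was listed at 0. The table analysed here held 8415 genes, 5551 of them on chromosomes 1 to 5, which summed to 25.4% to 27.5% of the total RPM of a library. A gene was tested when it exceeded 4 in at least 1 of the 6 libraries, which 2638 genes (31.3%) did. A gene that is high in only 1 group passes this filter through that group, and counts of tested members below carry that preference. In these bulk samples, fewer cells of a type and less RNA per cell cannot be told apart.

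The somatic labels were set against marker genes of 8 cell types. In the Liver library, 16 of the 19 hepatocyte markers in the table were listed at 0, ALB (albumin), TF and AHSG among them, and the 19 summed to 6.46 RPM. Mesenchymal markers were high in both cultures: 8 of 11 exceeded 4 in each, and their summed level was 8463 RPM in Liver and 10883 RPM in Stomach against 103 to 418 RPM in the iPSC lines. Among blood markers, 4 of 14 exceeded 4 in Liver, namely FCER1G, AIF1, CD53 and CD48, and 1 of 14 in Stomach (RUNX1). The Stomach library also held gastric epithelium, with 5 of 12 such markers above 4 and a sum of 1549 RPM against 4.70 RPM in Liver. Of 12 markers of epithelium in general, 8 exceeded 4 in Stomach, with a sum of 2159 RPM against 38.4 RPM in Liver. The library labelled Liver thus carried most mesenchymal markers, a minority of the blood markers (sum 148 RPM) and hardly any of hepatocytes. Stomach carried markers of mesenchymal cells and of gastric and general epithelium.

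The first question was what primed iPSCs had gained and lost relative to their source cells. Among 2638 genes, 677 (25.7%) were called by limma at an adjusted p under 0.05. Of these, 493 (18.7% of those tested) were higher and 184 (6.97%) lower in iPSCs. In all 677 the 4 iPSC values lay above or below both somatic values. Over all tested genes, 879 (33.3%) lay above and 413 (15.7%) below in the same way, so this adds little to the calls. At an unadjusted p under 0.05 there were 1069 genes. With a difference of at least 2 asked for as well, 160 genes were higher and 94 lower. The median difference over all tested genes was 0.25, a shift that centring of the libraries reduced to 0.02 and quantile normalization to 0.06. The split moved with it, to 307 higher and 267 lower after centring and to 351 higher and 245 lower after quantile normalization. In none of the alternative settings was a named gene called in the opposite direction.

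**Figure D1:**
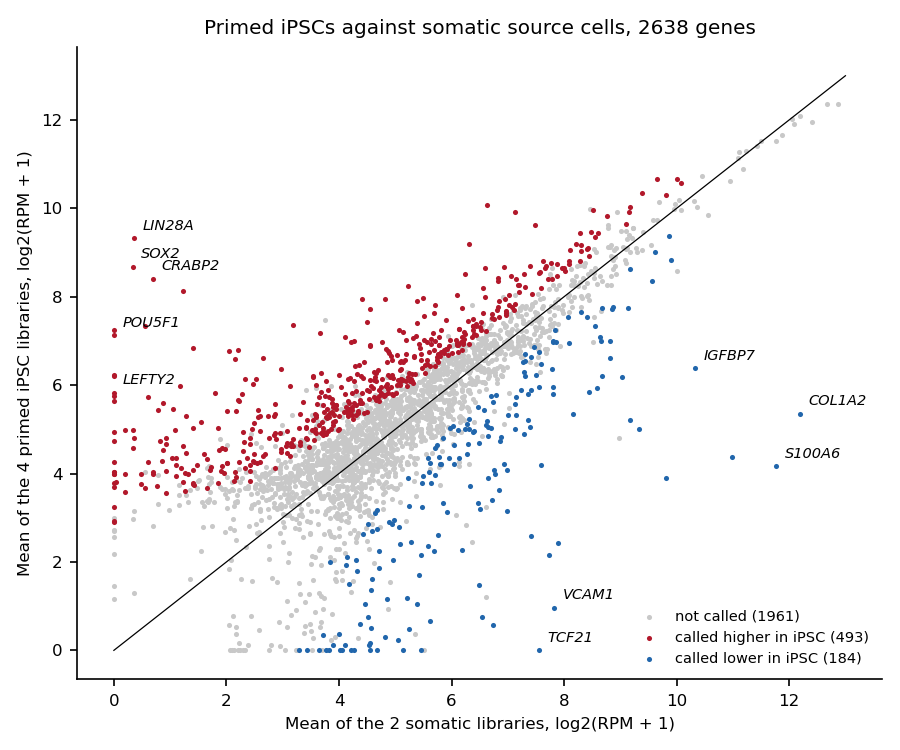
Mean log2(RPM + 1) of the 2 somatic libraries (horizontal) and of the 4 primed iPSC libraries (vertical) for the 2638 tested genes, with the 493 genes called higher in red, the 184 called lower in blue and the line of equal values in black. LIN28A, SOX2 and CRABP2 lie near the left edge at over 8, and S100A6 and COL1A2 lie farthest to the right below the line.

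Most of the pluripotency factors and markers that were tested rose in the iPSC lines. Of 24 genes listed, 21 were in the table and 15 were tested, and 13 rose, 0 fell and 2 did not pass the test, against 18.7% of all tested genes called higher. The median difference of the 15 was 6.23, beside 0.25 over all tested genes. These genes are known for this state of cells, and several of them name it, so the list describes the lines more than it tests them. This list and those below were chosen with earlier results of these data known. Their shares of called genes, set beside those of all tested genes, are therefore a description and no test of an excess.

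OCT3/4 itself (POU5F1, gene ID 102115117) measured 7.85, 7.90, 7.70 and 5.08 in L3, L6, S6 and S12 and was listed at 0 in Liver and Stomach. Its partner SOX2 (gene ID 102140202) measured 8.81, 9.05, 8.44 and 8.42 in the same order, with 0.67 in Liver and 0 in Stomach. SOX2 was level over the lines, whereas POU5F1 in S12 lay below the other lines by more than they differed from each other. The differences were 7.13 (standard error 0.77, adjusted p = 0.000802 from limma) for POU5F1 and 8.35 (standard error 0.29, adjusted p = 4.46e-06) for SOX2, the smallest adjusted p of the list.

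The RNA-binding proteins of the LIN28 and let-7 circuit rose together. LIN28A had 9.55, 9.73, 9.60 and 8.45 in the 4 lines and 0 and 0.72 in Liver and Stomach, the largest rise of any tested gene (8.97, standard error 0.39, adjusted p = 1.42e-05 from limma). Its paralog LIN28B had 7.12, 7.41, 7.28 and 7.55 in the lines and 1.12 and 0 in the somatic cells. Both groups were far apart for each paralog, and S12 was the lowest line for LIN28A and the highest for LIN28B. TRIM71, a ubiquitin ligase and RNA-binding protein, had 7.66, 7.83, 7.45 and 6.01 and was listed at 0 in both cultures. L1TD1, an RNA-binding protein derived from a LINE-1 element, had 6.52, 7.19, 6.83 and 4.39 and was likewise listed at 0.

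Of the members in Nodal signalling, LEFTY2 and CRIPTO rose and LEFTY1 did not pass the test. LEFTY2, a Nodal antagonist and Nodal target, had 5.48, 5.02, 6.04 and 6.78 in L3, L6, S6 and S12 and was listed at 0 in the somatic cells (difference 5.83, standard error 0.52, adjusted p = 0.000566 from limma). LEFTY1, its close paralog, had 0, 1.73, 5.75 and 4.46, a spread that left it without a call (adjusted p = 0.176 from limma). The paralogs are near-identical in part, and how reads were shared between them is not given in the sources used here. The Nodal co-receptor CRIPTO (TDGF1) had 4.88, 6.40, 5.90 and 2.76 in the lines against 0 and 0.41 in Liver and Stomach. The 2 lines from stomach had the higher LEFTY1 values, and S12 had the lowest CRIPTO.

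The other members that rose were DPPA4, a chromatin-associated marker of pluripotent cells, the retinoic acid binding protein CRABP2, the leucine-rich repeat protein LRRN1, the receptor phosphatase PTPRZ1 and JARID2, a subunit of Polycomb repressive complex 2. DPPA4 had 6.92, 6.50, 6.18 and 5.22 in the lines and was listed at 0 in both cultures. CRABP2 had 8.40, 8.53, 7.80 and 8.89, with S12 highest, and 0 and 1.39 in Liver and Stomach. PTPRZ1 had 6.86, 6.86, 6.23 and 2.66, with S12 far below the others, and was listed at 0 in the somatic cells. The calls of PTPRZ1 and CRIPTO were lost when either somatic library was left out (adjusted p between 0.0798 and 0.0946 from limma), and that of JARID2 without L3, L6, S6 or Liver (0.0567 to 0.136). LRRN1 had 8.20, 8.46, 8.34 and 7.52 in the lines, against 0 and 2.47 in Liver and Stomach. JARID2 was the only one of the 13 that exceeded 4 in a somatic culture, with 1.74 and 4.51 in Liver and Stomach and 6.04, 6.46, 6.31 and 5.12 in the lines. MYCL, whose human counterpart L-MYC was in the vectors, had 3.95, 4.38, 3.51 and 2.55 and 1.12 and 2.97, and its difference of 1.55 did not pass the test (adjusted p = 0.144 from limma). DPPA2, HESX1, EPHA1, DPPA5, KHDC3L and DNMT3L did not exceed 4 in any of the 6 libraries. The 13 rises held without S12, 12 of them without L3, L6 or S6, 10 without Liver and 11 without Stomach.

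**Figure D2:**
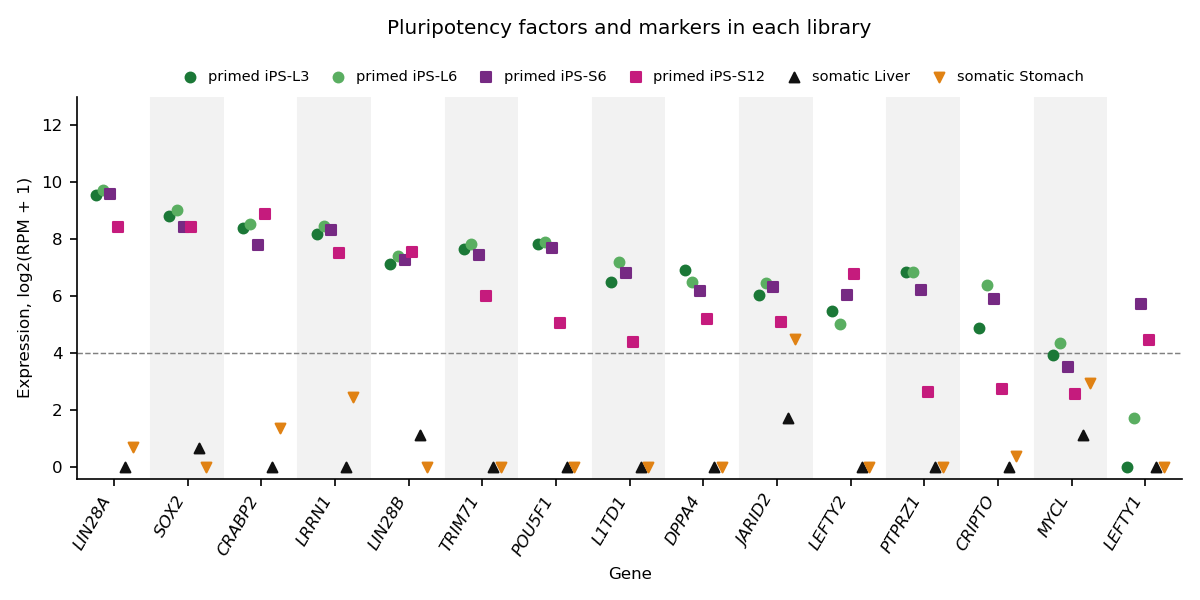
Log2(RPM + 1) of the 15 tested pluripotency genes in each of the 6 libraries, with L lines as circles, S lines as squares, Liver and Stomach as triangles and the threshold of 4 as a dashed line. Somatic values lie at the bottom except for JARID2, MYCL and LRRN1 in Stomach, and S12 lies below the other lines for POU5F1, L1TD1, PTPRZ1 and CRIPTO.

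One line stood apart from the other three. Among the 493 genes called higher, S12 had the lowest of the 4 iPSC values in 220 (44.6%), against 69 to 115 for each of the other lines. Among the 184 called lower, it had the highest value in 97 (52.7%), against 21 to 28. Over the 2638 genes, Pearson's r between S12 and the other iPSC lines was 0.89 to 0.92, compared with 0.94 to 0.95 among those lines. With the somatic libraries it was 0.71 (Liver) and 0.68 (Stomach) for S12, compared with 0.57 to 0.66 for the others. In the primed ESC lines CMK6, TRSK and CMK9, r was 0.66, 0.71 and 0.66 with Liver and 0.59, 0.65 and 0.57 with Stomach. The r of S12 with Liver was therefore not particular to it. These coefficients are across genes, which are not independent replicates, and are given as a description. The summed level of mesenchymal markers was 418 RPM in S12 and 103 to 130 RPM in the other iPSC lines. In the primed ESC lines CMK6, TRSK and CMK9 it was 388, 852 and 130 RPM, so the level of S12 was not particular to it. The part of these markers in the results was not tested. Without S12, 718 genes were called, 501 higher and 217 lower.

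The rises were not limited to that list. By the size of the difference, the 12 largest rises were LIN28A, SOX2, CRABP2, TRIM71, POU5F1, LRRN1, LIN28B, L1TD1, DPPA4, LEFTY2, PROM1 and PTPRZ1. PROM1, which encodes the membrane glycoprotein CD133, had 5.74, 6.34, 6.37 and 4.56 in L3, L6, S6 and S12 and was listed at 0 in both cultures (difference 5.75, standard error 0.56, adjusted p = 0.000659 from limma). It was the only called member among 10 tested markers of epithelium in general, beside 18.7% of all tested genes called higher and 6.97% lower. Genes above 4 in all 4 lines and under 2 in both somatic cultures were described as switched on, and there were 23 of them (0.872% of the tested genes), of which 9 were in the pluripotency list. Since these thresholds choose genes by the same values, their calls add nothing, and the list is a description.

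The other 14 switched-on genes, PROM1 included, are not on the pluripotency list. KALRN and TIAM1, exchange factors for small GTPases, had 4.98, 5.12, 4.89 and 4.92 and 5.07, 4.60, 4.93 and 4.59 in L3, L6, S6 and S12. In Liver and Stomach they had 1.47 and 0.72 and 0.67 and 1.20. RGS5, which accelerates GTP hydrolysis by heterotrimeric G proteins and marks pericytes in tissue, had 5.37, 6.26, 5.24 and 6.08 in the lines and 0 and 1.20 in the cultures. RRAGD, a Rag GTPase of the amino acid signal to mTORC1, had 6.25, 6.24, 5.79 and 4.16 against 1.74 and 0. The lines were even for KALRN, TIAM1 and RGS5, and S12 was lowest for RRAGD. The carboxypeptidase CPVL had 6.62, 6.71, 6.88 and 7.12 in the lines and 1.12 and 1.71 in Liver and Stomach. PAXIP1, a subunit of histone H3 lysine methyltransferase complexes, had 4.51, 4.38, 5.05 and 4.29, with 1.98 and 1.97 in the cultures. The other switched-on genes were SERTAD4, ETV3, COL26A1, ZNF273, PLEKHG1, GPR63 and SPINK2, with differences between 2.68 (SPINK2) and 4.66 (SERTAD4).

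On the side of loss, most of the tested mesenchymal markers fell. Of 12 listed, 11 were in the table and 10 tested, and 0 rose, 7 fell and 3 did not pass the test, against 6.97% of all tested genes called lower. The median difference of the 10 was -3.76, beside 0.25 over all tested genes, and 5 of the 12 genes stand on another list as well. Since the list was chosen with earlier results known, the share that fell is a description. S100A6, a calcium-binding protein, had 3.46, 4.45, 3.85 and 4.88 in L3, L6, S6 and S12 against 11.16 and 12.38 in Liver and Stomach, the largest fall of all genes (-7.61, standard error 0.45, adjusted p = 5.86e-05 from limma). TCF21, a transcription factor of visceral mesoderm, had 8.74 and 6.36 in Liver and Stomach and was listed at 0 in all 4 lines (fitted difference -7.55, adjusted p = 0.000659 from limma). The collagen receptor DDR2 had 6.45 and 6.62 in the cultures, was listed at 0 in L3, L6 and S6 and had 3.02 in S12. S100A4 had 4.79, 4.11, 4.71 and 6.44 in the lines and 9.49 and 9.16 in Liver and Stomach. S12 had the highest iPSC value for S100A6, DDR2 and S100A4, although it stayed under both cultures. PRRX1, a mesenchymal homeobox factor, fell by 3.20, and TGFBR2, the type II receptor of TGF-β, fell by 1.59. Both calls were lost without L3, L6, S6 or Stomach and without the filter on low values, that of PRRX1 also without Liver and with a pseudocount of 0.1, and that of TGFBR2 also without the mean-variance trend and with all 23 libraries. PDGFRA, NT5E and MME had differences of -1.66, -1.96 and 1.79 and did not pass the test, although NT5E was called lower without S12 and with the tissue of origin as a block (adjusted p = 0.0121 and 0.0321 from limma). NT5E in S12 (6.30) lay between Liver (5.47) and Stomach (6.79).

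Extracellular matrix genes fell in part. Of 32 genes listed for matrix proteins and collagen processing, 31 were in the table and 25 tested, and 12 fell, 0 rose and 13 did not pass the test, against 6.97% of all tested genes called lower and 18.7% called higher. The median difference was -1.02. As this list too was chosen with earlier results known, its share of falls is a description. COL1A2, a chain of type I collagen, was the most abundant of them, with 12.24 and 12.14 in Liver and Stomach and 5.05, 4.53, 4.51 and 7.33 in L3, L6, S6 and S12. In RPM this was 4832 and 4506 in Liver and Stomach against 32.1, 22.1, 21.7 and 159 in the lines, and S12 was the highest line (difference -6.84 on the log2 scale, standard error 0.72, adjusted p = 0.000767 from limma). IGFBP7, a secreted binding protein deposited in matrix, had 10.31 and 10.35 in Liver and Stomach and 6.27, 5.70, 6.51 and 7.06 in the lines, with no overlap.

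Of the other collagen genes COL6A1, COL6A2, COL12A1 and COL16A1 fell, with differences of -2.46, -2.46, -1.83 and -2.85. COL7A1, COL8A1, COL11A1 and COL18A1 did not pass the test, with differences from -0.40 (COL7A1) to 2.16 (COL11A1). COL11A1 parted the cultures, with 0.67 and 5.65 in Liver and Stomach, and had 5.17, 5.07, 5.09 and 5.94 in the lines. The lysyl hydroxylases that modify collagen chains fell together, with differences of -1.02 for PLOD1, -2.13 for PLOD2 and -1.84 for PLOD3. So did LEPRE1 (P3H1) and CRTAP, which form a prolyl hydroxylation complex (differences of -1.13 and -1.09), and PCOLCE2, an enhancer of procollagen cleavage (-1.82). The laminin chains LAMB1 and LAMC1 did not pass the test and overlapped between the groups, with 6.70, 6.62, 6.91 and 8.08 in the lines and 7.27 and 7.43 in the cultures for LAMB1, and 7.44, 7.40, 7.92 and 8.0 and 6.66 and 7.51 for LAMC1. The number of matrix genes called lower was 6 to 7 when L3, L6 or S6 was left out, 11 without S12 and 7 without Liver. Without Stomach it was 4, and COL11A1, MFAP2, FSTL1 and FBLN2 were then called higher in iPSCs, since these genes were lower in Liver than in Stomach. It was also 7 without the filter on low values and 7 without the mean-variance trend. COL1A2, IGFBP7, COL16A1 and CRTAP kept the call in all of these, whereas those of COL6A2, COL12A1, PLOD2, PCOLCE2 and LEPRE1 were lost in 6 or more alternatives.

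**Figure D3:**
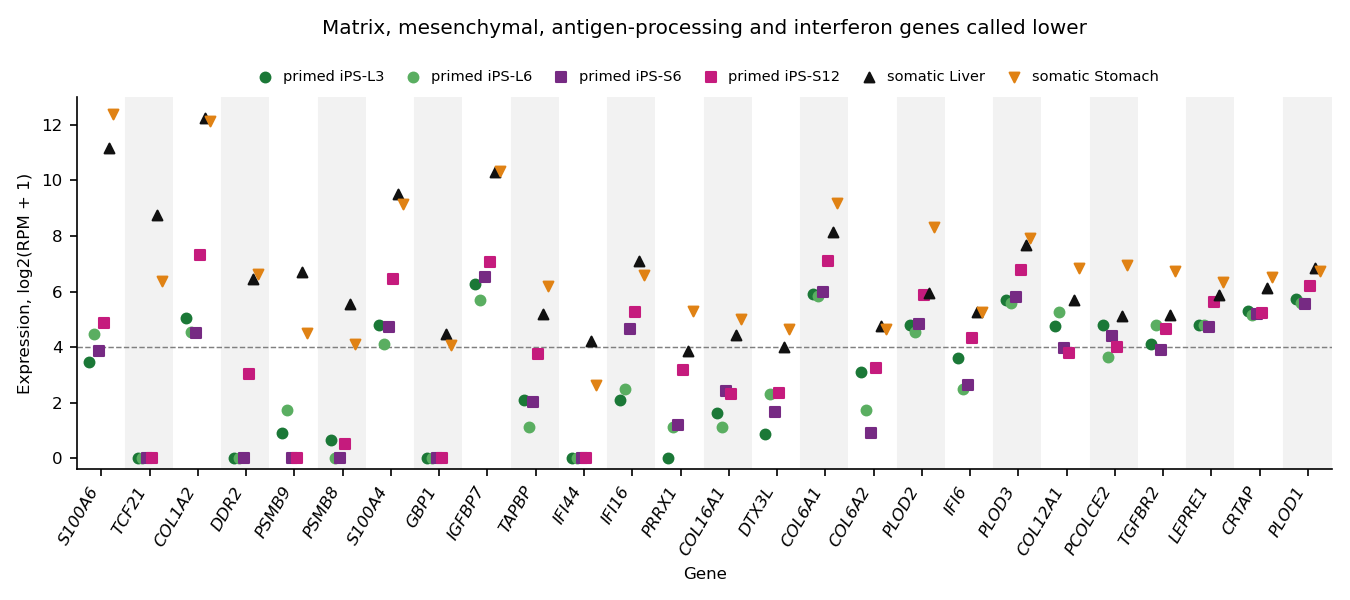
Log2(RPM + 1) in each of the 6 libraries for the genes of the matrix, mesenchymal and antigen-processing lists that were called lower, ordered by the size of the difference, with L lines as circles, S lines as squares, Liver and Stomach as triangles and the threshold of 4 as a dashed line. The triangles of Liver and Stomach lie above all 4 lines in each gene, and S12 is the line nearest to them for COL1A2, DDR2, S100A4 and PLOD3.

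Most of the tested antigen processing and interferon-response genes fell as well. Of 22 listed, all 22 were in the table and 12 tested, and 8 fell, 0 rose and 4 did not pass the test, against 6.97% of all tested genes called lower. The median difference was -2.87. Earlier results were known when this list was chosen, so its share of falls is a description. PSMB9, a catalytic subunit of the immunoproteasome, had 6.71 and 4.51 in Liver and Stomach and 0.91, 1.73, 0 and 0 in L3, L6, S6 and S12 (difference -4.95, standard error 0.87, adjusted p = 0.0063 from limma). PSMB8, another such subunit, had 5.55 and 4.11 in the cultures and 0.67, 0, 0 and 0.53 in the lines. The guanylate-binding protein gene GBP1 had 4.47 and 4.08 and was listed at 0 in all 4 lines, and so was IFI44, which had 4.22 and 2.63 in Liver and Stomach. For PSMB9, PSMB8 and GBP1, both cultures exceeded 4 and no line reached 2. TAPBP (tapasin), which loads peptides onto MHC class I, fell by 3.46. IFI16, a sensor of DNA, fell by 3.22, and DTX3L and IFI6 fell too, with differences of -2.52 and -1.99. TAP1, the peptide transporter, had 4.26 and 3.63 in Liver and Stomach and 1.75, 3.0, 1.45 and 0.92 in the lines, and did not pass the test (adjusted p = 0.0604 from limma). The receptor genes IFNAR1, IFNGR1 and IFNGR2 did not pass it either. IFNGR1 had 6.87, 6.87, 6.48 and 6.06 in the lines and 5.94 and 7.24 in the cultures, and both groups overlapped. The number of these genes called lower was 8 without S12, 5 without any 1 of L3, L6, S6 and Liver and 4 without Stomach. The calls of IFI44, IFI16 and IFI6 were each lost in 6 alternatives, those of DTX3L and TAPBP in 2. With the tissue of origin as a block 10 were called lower, TAP1 (adjusted p = 0.0431 from limma) and IFNGR2 (0.0242) in addition.

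The cytoskeletal and adhesion genes did not move as 1 group. Of 23 listed, 17 were tested, 1 rose, 4 fell and 12 did not pass the test, against 18.7% of all tested genes called higher and 6.97% lower, and the median difference was -0.15. Those that fell were LMNA, which encodes lamins A and C (difference -2.19), TM4SF1, a tetraspanin-like membrane protein (-4.81), MYLK, the myosin light chain kinase (-3.32), and TES, a focal adhesion protein (-2.0). LMNA had 9.26 and 8.36 in Liver and Stomach and 6.31, 6.10, 7.06 and 7.04 in the lines. LIMCH1, an activator of non-muscle myosin II, rose by 3.42. The caveolin CAV1 was abundant throughout, with 9.93, 9.83, 10.42 and 9.49 in the lines and 8.26 and 9.62 in Liver and Stomach. The call of TES was lost in 8 alternatives. With the tissue of origin as a block 6 were called lower. Without Liver 0 of these genes were called higher and 1 lower, and without Stomach 4 higher and 2 lower, so that the direction of this list rests on which culture it is set against.

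Secreted genes also parted the cultures. Of 22 inflammatory and growth-signal genes, 15 were tested, 1 rose, 4 fell and 10 did not pass the test, against 18.7% of all tested genes called higher and 6.97% lower. The median difference was -2.34. With the tissue of origin as a block 7 fell, CXCL6 (adjusted p = 0.0215 from limma), IGFBP3 (0.0379) and PTGS2 (0.0257) in addition. VEGFA fell by 1.45, with 6.57 and 6.69 in Liver and Stomach and 5.17, 5.02, 4.99 and 5.54 in the lines. CSF1, the macrophage growth factor, fell by 2.34, with 8.16 and 6.63 in the cultures and 5.90, 4.45, 4.45 and 5.41 in the lines. For both genes the cultures lay above all 4 lines, and the call of CSF1 was lost without L6, S6 or Liver. The chemokine genes CXCL1 and IL8 fell, with differences of -4.38 and -3.84, but Stomach was much the higher culture, with 3.20 and 5.90 in Liver and Stomach for CXCL1 and 4.39 and 9.58 for IL8. The call of IL8 (adjusted p = 0.049 from limma) was lost at pseudocounts of 0.1 and 5, without the filter, without the mean-variance trend, with all 23 libraries and without L3, L6, S6, S12 or Stomach (adjusted p between 0.0532 and 0.240). Without Liver 7 of the list were called lower. Without Stomach 3 were called lower and 3 higher.

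Among the 12 largest falls by size were S100A6, TCF21, VCAM1, COL1A2, LOC102120093, TINAGL1, LOC101865018, DDR2, LOC102121104, CLIC5 and LOC102122400. VCAM1, an adhesion molecule for leukocytes, had 8.88 and 6.78 in Liver and Stomach and 0.91, 1.73, 0 and 1.22 in the lines. TINAGL1, a secreted matricellular protein, had 6.62 and 6.86 and 0, 1.73, 0 and 0.53. CLIC5, which links membranes to actin, had 6.50 and 4.42 and was listed at 0 in every line. The entries LOC102120093, LOC101865018, LOC102121104 and LOC102122400 stand next to each other in the table, beside AKR1B10, and have no symbol in the sources used here. LOC102120093 had 10.84 and 11.13 in Liver and Stomach and 3.98, 3.28, 5.93 and 4.27 in L3, L6, S6 and S12, with S6 the highest line. Neighbouring entries of this kind may share reads, and the 4 values are not independent.

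Genes above 4 in both cultures and under 2 in all 4 lines were described as switched off, and there were 13 (0.493% of those tested). Besides VCAM1, TINAGL1, CLIC5, TCF21, GBP1, PSMB8 and PSMB9 they included FAM129A, FMOD, CDKN2C, AHR and GSAP. FMOD, the small proteoglycan fibromodulin, had 5.13 and 4.21 in Liver and Stomach and was listed at 0 in all lines. CDKN2C, the CDK inhibitor p18INK4c, had 5.27 and 4.84 and 0, 0, 0.90 and 0. AHR, the aryl hydrocarbon receptor, had 4.39 and 4.62 in the cultures and 1.3, 0, 1.20 and 0.53 in the lines. In 5 of the 13 genes all 4 lines were listed at 0. A value under 2 in L6, the shallowest library, is under its level of 3 reads, so a low level there was not detectable at this depth.

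A minority of the tested cell-cycle genes rose. Of 33 listed, 26 were in the table and 25 tested, and 9 rose, 0 fell and 16 did not pass the test, against 18.7% of all tested genes called higher. The median difference was 0.78. Those that rose were ORC1, of the origin recognition complex (by 2.71), MCM3, of the replicative helicase (by 2.11), GMNN, the licensing inhibitor geminin (by 2.07), RFC4, of the clamp loader (by 1.51), and DTL, of a ubiquitin ligase active in S phase (by 1.19). MCM3 had 7.97, 8.10, 8.04 and 7.17 in L3, L6, S6 and S12 and 6.10 and 5.32 in Liver and Stomach. CKS1B, CENPF, KIF2C and the phosphatase CDC25A also rose, by 1.18, 1.16, 0.83 and 1.64. MCM7 (0.68), CDC7 (1.08), RFC2 (0.78), CDC20 (0.62), NCAPG (0.21) and TTK (-0.54) were among those that did not pass the test. The calls of KIF2C, CDC25A and CENPF were lost in 9, 8 and 4 alternatives. After centring of the libraries 6 were called, without Stomach 5 and with all 23 libraries in the fit 15.

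Most of the tested chromatin genes rose. Of 19 listed, 18 were tested, and 12 rose, 0 fell and 6 did not pass the test, against 18.7% of all tested genes called higher. The median difference was 0.98. EZH2, the methyltransferase of Polycomb repressive complex 2, had 6.53, 7.05, 6.88 and 6.61 in the lines and 5.42 and 4.33 in Liver and Stomach (difference 1.89, standard error 0.32, adjusted p = 0.0057 from limma). Its partner JARID2 rose by 2.86. HDAC1 rose by 1.60 and HDAC2 by 0.73, and the histone demethylases KDM5B and KDM1A rose by 1.45 and 0.72. SMARCC1, a subunit of SWI/SNF remodellers, rose by 1.44, PARP1 by 1.57, the histone chaperone RBBP4 by 1.07, SETDB1, which methylates lysine 9 of histone H3, by 1.60, DEK by 0.99 and HMGN1 by 0.98. The rises were small next to those of the pluripotency list. Because the chromatin list was chosen with earlier results known, the share that rose is a description. After centring of the libraries 7 of the 12 were still called, and HDAC2, KDM1A, SETDB1, HMGN1 and DEK were not. Without L6 the count was 7 too.

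Other lists held few calls. Of 10 genes for serine, one-carbon and nucleotide synthesis 9 were tested and 3 rose, beside 18.7% of all tested genes. They were PPAT, the first enzyme of purine synthesis (by 2.48), PAICS of the same pathway (by 0.95) and the histone chaperone NASP (by 2.04). The transferrin receptor TFRC of the same list was called lower after centring, after quantile normalization, without Liver, with all 23 libraries and with the tissue of origin as a block (adjusted p = 0.0386 from limma), and had 6.29, 6.34, 6.26 and 6.99 in the lines and 6.80 and 8.20 in the cultures. Of 14 p53 targets 10 were tested, 1 rose and 1 fell, against 18.7% and 6.97% of all tested genes. Without L6 0 were called, and without Stomach 3 were higher and 0 lower. CDKN1A (p21), the CDK inhibitor induced by p53, had 6.48 and 8.71 in Liver and Stomach and 2.84, 4.29, 5.62 and 4.01 in L3, L6, S6 and S12, and fell by 3.40 (standard error 0.80, adjusted p = 0.0175 from limma), a call that was lost without L6 (0.0516) and without Stomach (0.189). EPHA2, a receptor tyrosine kinase, rose by 2.08, without a call when L6 or Liver was left out. The hairpin against p53 was carried by the vector that the study still detected in some lines. Whether the hairpin acted in these libraries was not tested. The other 8 targets tested, among them SESN2, GADD45A and ZMAT3, had differences from -1.38 (PHLDA3) to 2.46 (PERP).

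Of 30 developmental transcription factors, 27 were in the table but only 7 exceeded 4 in any of the 6 libraries. Of these 7, 1 rose, 2 fell and 4 did not pass the test, against 18.7% of all tested genes called higher and 6.97% lower. HOXA2, an anterior HOX gene, had 4.63, 3.36, 3.34 and 3.70 in L3, L6, S6 and S12 and 0.67 and 2.70 in Liver and Stomach and did not pass the test. The posterior members HOXA9, HOXA10, HOXA11 and HOXA13 exceeded 4 in none of the 6 libraries. TCF21 and PRRX1, named above, were the 2 that fell, PRRX1 without a call in 7 of the alternatives.

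Among markers of other cell types, single genes were called, beside 18.7% of all tested genes called higher and 6.97% lower. AFP (alpha-fetoprotein), the only hepatocyte marker of the 19 to pass the filter, was listed at 0 in Liver and Stomach and had 5.67, 5.53, 5.72 and 2.04 in the lines, also in those made from stomach, and its call was lost without L6, S6, Liver or Stomach. KDR, a VEGF receptor of endothelium and early mesoderm, rose by 3.40 and was the only tested endothelial marker, with a call that was lost without Stomach. KIT, a receptor of blood and germ cell precursors, rose by 3.12. FCER1G, a signalling chain of Fc receptors in myeloid cells, fell by 4.40, with 5.60 and 3.47 in Liver and Stomach. KIT and FCER1G were the called genes of 6 tested blood markers. Of the 6 tested markers of stomach epithelium and the 1 of mesothelium, 0 were called, but AGR2 and PDPN were with the tissue of origin as a block (adjusted p = 0.0474 and 0.0464 from limma). With so few genes, 0 calls are no result about these markers. TFF1, TFF2 and CLDN18 were listed at 0 in Liver, so the spread between the cultures was wide for them. RGS5, the pericyte marker named above, and MYLK were the called genes of 5 tested for smooth muscle and pericytes, in opposite directions.

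**Figure D4:**
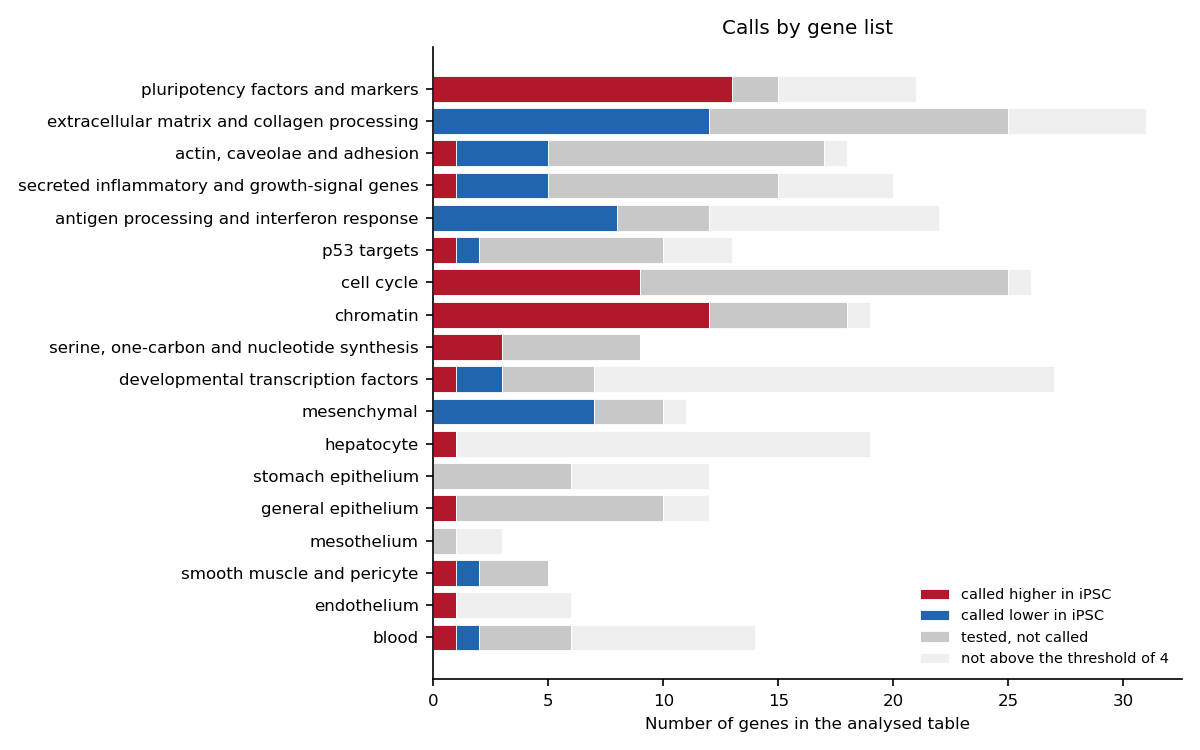
Number of genes in the analysed table for each of the 18 lists, divided into those called higher in iPSCs (red), called lower (blue), tested and not called (grey) and not above 4 in any of the 6 libraries (light grey). The pluripotency list (13 of 15 tested) and the chromatin list (12 of 18) hold the most genes called higher, and the matrix list (12 of 25) the most called lower.

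The somatic cultures differed from each other in genes of epithelium and of blood. With 1 library each there is no test, and the values are a description. A difference of 3 or more was seen in 5 genes with Liver higher (0.19% of those tested) and in 112 with Stomach higher (4.25%). Among the 10 highest Stomach values over Liver were those of CXCL6, AGR2, UPK1B, INHBA, SPRR1B, LOC102123657, CLDN18, PDPN and TFF2. CXCL6, a neutrophil chemokine, had 1.98 and 11.25 in Liver and Stomach. AGR2, a disulphide isomerase of mucus-secreting cells, had 1.12 and 9.89, and INHBA, a subunit of activin A, had 0.67 and 9.16. The gastric tight junction protein CLDN18 and the trefoil factor TFF2 were listed at 0 in Liver and had 7.56 and 7.39 in Stomach. UPK1B, a uroplakin, and SPRR1B, a cornified envelope protein, had 0 and 8.68 and 1.12 and 9.57. The list of Stomach genes held secretory, gastric and squamous epithelial transcripts side by side.

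The highest Liver values over Stomach were those of F13A1, CD48, C1QTNF7, C1H1orf54, LRRN2, ADCK3, LOC102137176, CD53, CNR1 and AIF1. F13A1, the A subunit of coagulation factor XIII and a gene of macrophages, had 4.17 and 0.41 in Liver and Stomach. The leukocyte surface proteins CD48 and CD53 had 4.07 and 0.41 and 4.39 and 1.71, and AIF1, a macrophage protein, had 4.81 and 2.19. C1QTNF7 had 5.20 and 1.85, and CNR1, the cannabinoid receptor 1, had 5.06 and 2.38. These levels were low beside those of the Stomach genes, and 4 of the 10 are genes of blood cells. Most of the 10 were at or near 0 in the lines, except C1H1orf54 (4.43, 2.50, 3.72 and 2.85), LRRN2 (4.0, 3.19, 4.23 and 3.92) and ADCK3 (4.13, 3.90, 3.67 and 2.18).

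The fate of the 112 Stomach genes in the lines was uneven. In 29 of them all 4 lines were under 2, CLDN18, TFF1, TFF2, AGR2, UPK1B and SPRR1B among them, and in 25 all 4 lines were above 4. Over all 2638 tested genes, all 4 lines were under 2 in 73 and above 4 in 1710. A gene high in Stomach alone passed the filter through that library, so these counts are a description. PDPN (podoplanin) was listed at 0 in Liver and had 7.49 in Stomach and 6.82, 7.09, 7.80 and 8.23 in L3, L6, S6 and S12, so that the L lines carried a transcript that their source culture did not show. It was not called against both cultures (adjusted p = 0.129 from limma), but was with the tissue of origin as a block (0.0464). PERP, a desmosomal p53 target, had 0.67 and 6.17 in Liver and Stomach and 5.30, 5.46, 6.50 and 6.26 in the lines. The primed ESC lines CMK6, TRSK and CMK9 had 6.59, 6.84 and 7.07 for PDPN and 5.63, 5.94 and 6.35 for PERP. Such levels were therefore not particular to the iPSC lines. Against both cultures together, 9 of the 112 (8.04%) were called higher in iPSCs and 2 (1.79%) lower, beside 18.7% and 6.97% of all tested genes, and 0 of the 5 Liver genes were called.

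The last question was whether lines from liver and lines from stomach differed. Between L3 and L6 on one side and S6 and S12 on the other, 0 of 2638 genes were called by limma, with 222 (8.42%) at an unadjusted p under 0.05. The smallest adjusted p, 0.0871, was that of ABCB1, a drug efflux pump, with a difference of 2.59 (standard error 0.12) in favour of the L lines. With a pseudocount of 0.1 ABCB1 and NFIA were called, and with values raised to the level of 3 reads LOC102133263 was. Without S6 the count was 19 and without S12 it was 9, in each case with 1 stomach line left, which is assumed to vary like the liver lines. An exact test of 2 against 2 cannot go below p = 0.333.

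The genes that parted the source cultures were then followed in the lines, as a description. Both S lines lay above both L lines in 593 of 2638 tested genes (22.5%), and in 30 of the 112 genes higher in Stomach (26.8%). The L lines lay above the S lines in 425 tested genes (16.1%), in 14 of the 112 (12.5%) and in 0 of the 5 genes higher in Liver. The median difference between L and S lines was -0.32 over the 112 genes and -0.04 over all tested genes, and 0 of the 112 were called. At an unadjusted p under 0.05 there were 25 of the 112 (22.3%), against 222 of all tested genes (8.42%), and the difference between these shares was not tested. CXCL6 was listed at 0 in L3 and L6 and had 1.85 in S6 and 2.93 in S12, far under the 11.25 of Stomach, and the ESC lines, which have no such source, had 3.70, 2.72 and 1.20. Every iPSC line had a higher r with Liver than with Stomach, 0.66, 0.64, 0.66 and 0.71 for Liver and 0.58, 0.57, 0.60 and 0.68 for Stomach in L3, L6, S6 and S12, whichever organ it had come from. The primed ESC lines CMK6, TRSK and CMK9 showed the same order, with 0.66, 0.71 and 0.66 for Liver and 0.59, 0.65 and 0.57 for Stomach. The tested genes were filtered on the same 6 libraries and held 112 far higher in Stomach but 5 far higher in Liver. The part of this in r was not tested.

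**Figure D5:**
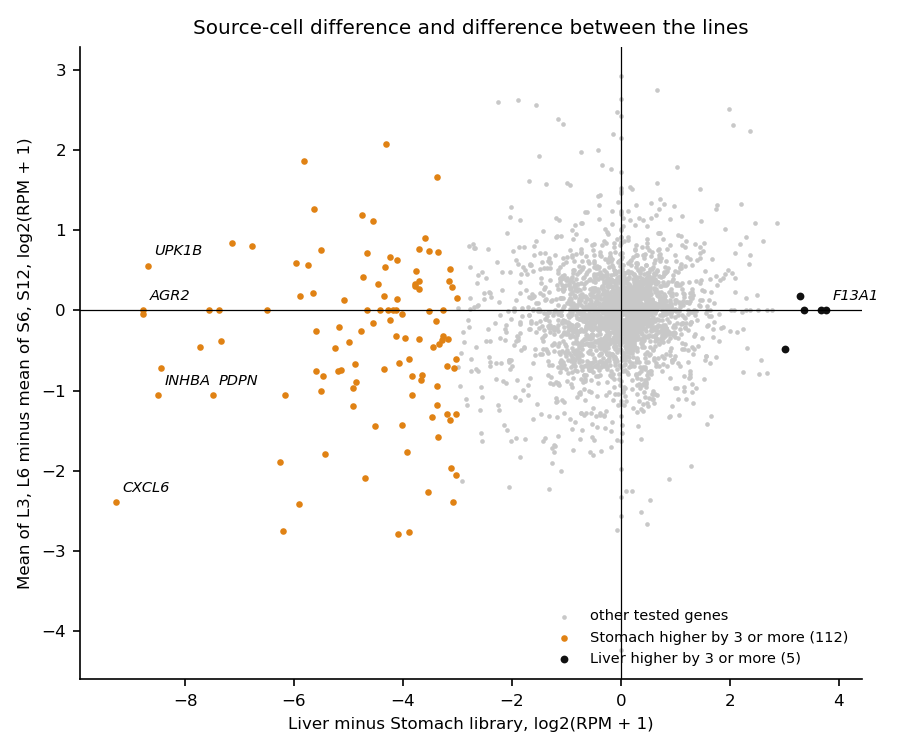
Difference between the Liver and Stomach libraries (horizontal) and between the means of the L lines and the S lines (vertical), both in log2(RPM + 1), for the 2638 tested genes. The 112 genes at least 3 higher in Stomach (orange) lie on both sides of 0 on the vertical axis with a median of -0.32, and the 5 at least 3 higher in Liver (black) lie between -0.48 and 0.18.

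Primed ESC lines were set beside the iPSCs without a test, because both would share the somatic libraries as control. In 12 of the 13 switched-off genes the ESC lines CMK6, TRSK and CMK9 were all under 2. The exception was FAM129A, with 1.34, 2.08 and 3.02 in CMK6, TRSK and CMK9. Of the 23 switched-on genes, 16 were above 4 in all 3 ESC lines and 21 in at least 1. LEFTY2 had 1.79, 1.87 and 2.31 in CMK6, TRSK and CMK9, under all 4 iPSC lines. PLEKHG1 was the other gene above 4 in no ESC line. S100A6 and COL1A2 had 6.68, 7.85 and 3.49 and 7.93, 9.18 and 6.26 in the ESC lines, so that for COL1A2 all 3 lay above L3, L6 and S6. POU5F1 had 7.99, 8.51 and 8.74, near the values of L3, L6 and S6 and above that of S12.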

How the data were processed

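Total RNA (1 ng) of each culture was amplified to cDNA and its 3′ ends were sequenced as 75 bp single reads. The authors deposited 1 table of RPM values (reads of a gene divided by those mapped in its library), in which every library has its own column and replicates are not pooled. Their processing notes name cutadapt 1.3, TopHat 1.4.1 and Cufflinks 2.2.0, and the table is named for the macfas5 genome. One row that was cut off was left out, and 8415 genes remained. By gene ID 5564 of them matched RefSeq, whose table is of another assembly, 2851 did not, and 980 took their symbol from it. No coordinates or sequences were taken from it. Promoter features were planned and not analysed here.

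The RPM values are not counts. Of the values above 0, 90.0% to 92.1% in the 6 libraries were whole multiples of the step (tolerance 0.01 reads), and for that reason no count model was fitted. Values were taken as log2(RPM + 1), genes above 4 in at least 1 of the 6 libraries were kept, and the groups were tested 2-sided by limma 3.58.1 (R 4.3.3) with a mean-variance trend, at a Benjamini-Hochberg adjusted p under 0.05 over all 2638 genes. The difference understates changes of low genes because of the pseudocount. The fit was tested on simulated data with known differences. Tables were made in Python 3.11.15 with pandas 2.3.3 and numpy 2.4.6.

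The members and the 18 gene lists were chosen with earlier results of these data known. Shares of called genes in the lists are therefore a description and no test of an excess over all tested genes. Genes named are the members of the lists, the 12 largest rises and falls among called genes without overlap, the 10 genes highest in each somatic library over the other, and the switched genes. A few genes that these rules name are not reported here. ABCB1, NFIA and LOC102133263 were named after their values were seen. Alternatives were pseudocounts of 0.1 and 5, no filter and a filter on 2 of the 6 libraries, quantile normalization, library centring, no trend, all 23 libraries in the fit, values raised to the level of 3 reads, a block for the tissue of origin and each library left out in turn. The mean of each line over its 3 conditions was a further alternative for the lines.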

Additional observations from a re-analysis of the deposited data

Results flagged for a closer look

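In 27 of 202 named genes with unequal values in the 4 primed iPSC lines, the gap between the most extreme line and the next, divided by the range of the 4, exceeded Dixon's critical value. For normal values chance gives about 1 in 20, or 10.1 of 202. Genes of 1 library can move together, and several ratios of 1 come from lines listed at 0. The 2 counts are therefore no test of an excess. S12 was the extreme line in 19 of the 27, L6 and S6 in 3 each and L3 in 2. S12 was lowest for POU5F1 (gap over range 0.929), LIN28A (0.864), PTPRZ1 (0.848), MCM3 (0.860), CDC7 (0.845), GMNN (0.902), PARP1 (0.831), AFP (0.950) and F11R (0.897). It was highest for COL6A1 (0.866), COL11A1 (0.883), PLOD3 (0.842), LEPRE1 (0.932), INHBA (0.856), TFRC (0.884) and FAM129A (0.970), and for DDR2, FCER1G and LOC102123657, for which the other lines were listed at 0 and the ratio is 1. DDR2 in S12 was at 3.02, while FCER1G (0.53) and LOC102123657 (0.92) were there under the level of 3 reads. In S12 the low genes include factors of pluripotency and DNA replication, and the high ones collagen genes and their processing enzymes. The summed mesenchymal markers (418 RPM) were highest in S12 among the iPSC lines. The primed ESC lines CMK6, TRSK and CMK9 had 388, 852 and 130 RPM. The part of these markers in the S12 values was not tested.

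The other extreme lines were L6 for IL8 (lowest, 0.850), S6 for PHLDA3 (highest, 0.840) and L3 for NUF2 (lowest, 0.839) and CKS1B (highest, 0.977). LAD1 and CDKN2C in S6 and AIF1 and UPK1B in L6 were above 0 in that line alone, which gives a ratio of 1. In CKS1B the extreme line differed from the next by little, 8.85 against 8.79.

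For 15 named genes both lines from liver moved one way from the Liver library and both lines from stomach the other way from the Stomach library. In all, 216 genes were named, and the share over all tested genes was not computed. The pattern can arise where the source cultures differ and the lines lie between them, without a difference between the lines. The difference between the 2 changes was not tested, since each source has 1 library. Given as the mean change in the liver lines minus that in the stomach lines, it was 7.98 for CTSE, 7.44 for INHBA, 5.65 for F11R and 2.85 for CLDN4, all genes that were low in Liver and high in Stomach. For INHBA, Liver (0.59 RPM) and L6 (1.16 RPM) lay under the level of 3 reads and L3 (0.88 RPM) lay at it. CTSE was listed at 0 in Liver, and in L6 (1.11) it was under that level (2.17). The direction in the liver lines thus rests on few reads for these genes. F11R, a tight junction protein, was 3.59 above Liver in the liver lines and changed by -2.07 from Stomach in the stomach lines. The same difference was 2.80 for FBLN2, 2.60 for EDN1, 2.34 for MSX1, 1.90 for IFNGR1, 1.31 for KIF14, 1.12 for FSTL1 and 1.05 for ANXA3. It had the other sign for PHC2 (-1.34), PCOLCE (-1.07), STMN1 (-1.02) and ZYX (-0.64).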

How the results depend on the processing

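The count of 677 genes called between primed iPSCs and somatic cells (493 higher, 184 lower) was 557 to 785 under the other pseudocounts, filters, scalings, values raised to the level of 3 reads, no mean-variance trend and the tissue of origin as a block, which gave 785. It was 1074 (747 higher, 327 lower) with all 23 libraries in the fit, and 254 (160 higher, 94 lower) with a difference of at least 2. After library centring 307 were higher. When 1 library was left out it was 396 to 718, with 288 to 501 higher and 103 to 217 lower. It was lowest without L6 (396), S6 (399) and L3 (459), and without Stomach 116 were lower. The cause was not tested, apart from the fewer samples. Of 104 named genes that were called, 63 kept the call in all 16 alternatives of the fit and 82 in those that leave no library out, and 0 reversed. The calls lost were most with Stomach (32) or L6 (26) left out.

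Between liver-derived and stomach-derived lines, 0 genes were called, with 2 at a pseudocount of 0.1, 1 with values raised to the level of 3 reads and 0 to 19 with 1 line left out. The number switched off was 13, with 7 under a limit of 1 and 24 under a limit of 3, and the number switched on was 23, with 9 and 44. Genes at least 3 higher in Liver were 5, with 16 at a pseudocount of 0.1, 0 at a pseudocount of 5, 3 with values raised to the level of 3 reads and 20 after quantile normalization. Genes at least 3 higher in Stomach were 112, with 45 at a pseudocount of 5. These 5 alternatives for the somatic libraries were chosen after seeing the data. No paired analysis was possible because the primed iPSC and somatic groups share no replicate numbers, and the labels tie lines to cultures by the tissue of origin alone, whose block gave the 785 calls (549 higher, 236 lower).

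The precision is limited by 1 library per line and culture and by 861000 reads in L6. An exact permutation test of 4 against 2 libraries cannot go below p = 0.0667.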
